A study of Mus musculus with 6 samples.

Results

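Slc10a2, Fabp6, Slc51a, Slc51b and Fgf15 carry bile acids through the enterocyte of the ileum or signal their passage to the liver, and their messenger RNA levels were followed here in the mouse large intestine. The genes were taken as a fixed list of 5, and each was read from a probe set (a group of probes for a transcript on the array) annotated to that gene alone. Each had only 1 such probe set, so keeping the brightest probe set of a gene retained all 5, of 18193 genes measured. The samples were total RNA from female C57BL/6J mice, an inbred strain, labelled as untreated, with 3 libraries labelled proximal colon and 3 labelled distal colon. Per the design text both regions came from the same 3 animals, but the labels do not tie a library to an animal, and neither age nor the exact stretch of colon is given in the sources used here. Each library was hybridised to 1 array, and all values are log2 expression, so that a difference of 1 is a doubling.

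Bile acids are made in the liver from cholesterol, secreted into the gut to dissolve fat, and recovered mostly in the ileum. Slc10a2 takes them up across the brush border, Fabp6 binds them in the cytosol, and the Slc51a and Slc51b proteins pair up to export them across the basolateral membrane. Bile acids in the cell activate the nuclear receptor FXR, encoded by Nr1h4, which induces Fabp6, Slc51a, Slc51b and the hormone Fgf15, and Fgf15 in turn lowers bile acid synthesis in the liver. The colon receives the bile acids that escape the ileum, after bacteria have modified them.

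A pair of libraries went against their labels, so the result of each of the 5 genes is given with and without them. For most other genes only the difference without them is given. The summed level of 3 genes of the posterior body axis (Hoxb13, Hoxd13 and Hoxa13) was 14.04 in the library labelled proximal 1, but 7.33 and 7.38 in proximal 2 and 3. It was 14.35 and 14.01 in distal 1 and 2, but 7.52 in distal 3. Across all genes, which are not independent replicates, proximal 1 correlated at 0.993 and 0.990 with distal 1 and 2, against 0.977 and 0.975 with proximal 2 and 3. Distal 3 correlated at 0.996 and 0.995 with proximal 2 and 3, against 0.974 and 0.976 with distal 1 and 2. Libraries keep their labels throughout, and none was moved to another group.

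All 5 bile acid genes were high in the same 3 libraries, those labelled proximal 2, proximal 3 and distal 3, and low in proximal 1, distal 1 and distal 2. Because each labelled group held libraries of both kinds, the groups overlapped for all 5 genes, and as labelled none of them passed the test between the regions. Without proximal 1 and distal 3, all 5 were lower in distal libraries, with differences from -1.42 for Fgf15 to -6.92 for Slc51a on the log2 scale. The exporter subunit Slc51a was below the lower quartile of genes in the 3 low libraries, and its partner Slc51b was above it in every library.

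**Figure D1:**
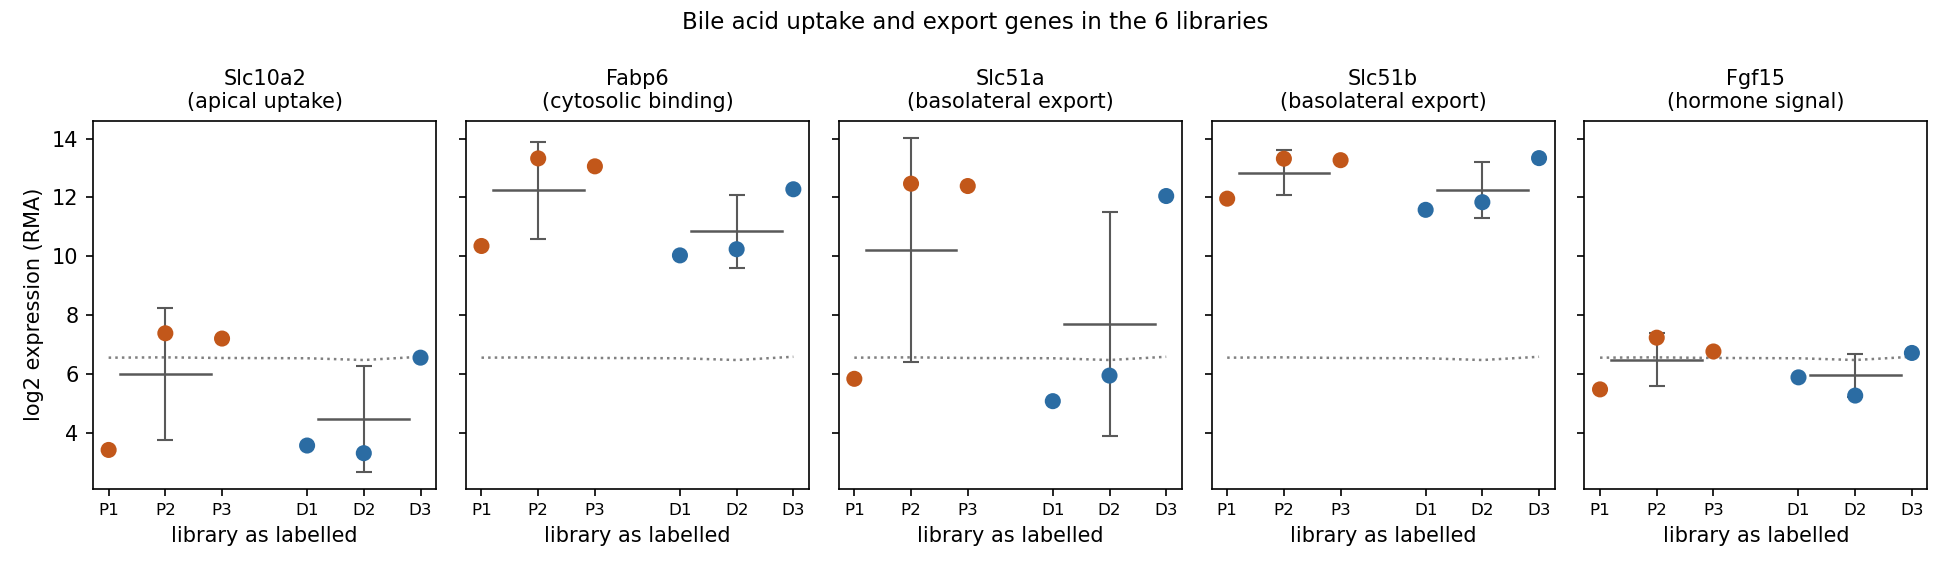
Log2 expression of the 5 genes in the 3 libraries labelled proximal (P1 to P3, orange) and the 3 labelled distal (D1 to D3, blue), 1 point per library. Horizontal bars are group means, whiskers are 1 SD (n = 3), and the dotted line joins the lower quartile of all genes on each array. In every panel P2, P3 and D3 lie above P1, D1 and D2.

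Slc10a2, which takes up bile acids together with sodium at the apical membrane, measured 3.41, 7.38 and 7.20 in proximal 1, 2 and 3, and 3.56, 3.30 and 6.55 in distal 1, 2 and 3. The 3 low libraries lay within 0.26 of each other and were separated from the lowest of the others by 2.99. Even the highest value, in proximal 2, exceeded only 32.8% of the genes on its array, and 4 libraries were below the lower quartile of their array, where background signal can hide lower levels. As labelled, the means were 4.47 ± 1.81 in distal and 6.00 ± 2.24 in proximal libraries (SD, n = 3), a difference of -1.53 (SE 1.32, limma adjusted p = 0.824). The spread within each group was larger than this difference. Without proximal 1 and distal 3 the difference was -3.86 (SE 0.14, limma adjusted p = 0.000261), between a proximal mean of 7.29 and a distal mean of 3.43. The call held when any 1 of the 4 remaining libraries was left out, with adjusted p from 0.0292 to 0.0491 by limma.

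Fabp6, the cytosolic bile acid binding protein of the ileum, measured 10.35, 13.33 and 13.06 in proximal 1, 2 and 3, and 10.03, 10.24 and 12.28 in distal 1, 2 and 3. It was well above the lower quartile of the array in all 6 libraries, and its low values exceeded 59.5% to 62.9% of genes. Background itself was not measured, since no detection calls were used. As labelled, the means were 10.85 ± 1.24 in distal and 12.25 ± 1.65 in proximal libraries (SD, n = 3), and the difference of -1.40 (SE 0.95, limma adjusted p = 0.824) was within the spread of the groups. Between the 4 other libraries it was -3.06 (SE 0.15, limma adjusted p = 0.000525), or 8.34-fold higher in proximal libraries. The adjusted p by limma ran from 0.0352 to 0.0499 when 1 of the 4 libraries was left out. Among the high libraries distal 3 was the lowest, 1.05 below proximal 2.

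Fabp6 is a known target of FXR, as are Slc51a and Slc51b. Its promoter is the sequence shown, and of the 4 promoters searched it alone held a match to a motif described below. The sequence is the RefSeq window from 250 bases before to 50 bases after the start of the gene (build GRCm38.p6, chr11:43601513-43601812, minus strand), written 5′ to 3′ along the gene. The capitals mark matches to an inverted repeat with a spacer of 1 base (IR-1), the kind of element that FXR is known to bind with its partner RXR. The motif was AGGTCANTGACCT, which reads the same on both strands, with at most 2 of its 12 fixed letters differing.
Fabp6: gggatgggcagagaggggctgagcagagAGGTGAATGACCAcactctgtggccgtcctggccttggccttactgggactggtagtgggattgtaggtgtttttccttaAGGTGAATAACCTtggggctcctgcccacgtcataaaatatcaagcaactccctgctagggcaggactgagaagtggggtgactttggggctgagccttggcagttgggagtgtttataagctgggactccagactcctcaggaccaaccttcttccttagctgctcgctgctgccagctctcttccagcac
The matches, AGGTGAATGACCA and AGGTGAATAACCT, begin 222 and 142 bases before the start and each differ from the motif in 2 letters. The 2 matches do not overlap. Of 32851 promoter windows of the same length, 1.14% hold such a match. A match is a description of the letters, and no binding was measured. The windows of Slc10a2, Slc51a and Slc51b hold no match to this motif, and none of the 4 windows holds a match to TCAAGGTCA, the site of the receptor LRH-1 (Nr5a2), searched on both strands with at most 1 difference, which 7.46% of all windows hold. This says only that these letters are not in these windows. Windows were found for 4 of the 5 genes, without Fgf15.

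Slc51a, the larger subunit of the basolateral exporter, measured 5.83, 12.47 and 12.39 in proximal 1, 2 and 3, and 5.07, 5.94 and 12.05 in distal 1, 2 and 3. It had the widest range of the 5 genes, 7.40, with nothing between 5.94 and 12.05. The 3 low values were below the lower quartile of their arrays, and the 3 high ones exceeded 85.2% to 90.0% of genes. As labelled, the means were 7.69 ± 3.8 in distal and 10.23 ± 3.81 in proximal libraries (SD, n = 3), with a difference of -2.54 (SE 2.47, limma adjusted p = 0.825). On the 4 libraries it was -6.92 (SE 0.29, limma adjusted p = 0.000362). With the low pair below the lower quartile, where background adds to the signal, this size may understate the change. The adjusted p by limma was 0.0320 to 0.0487 with 1 of the 4 libraries left out. Its probe set belongs to a class whose probes can also match other transcripts.

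Slc51b, the smaller subunit, which the exporter needs to reach the membrane, measured 11.96, 13.32 and 13.27 in proximal 1, 2 and 3, and 11.58, 11.84 and 13.34 in distal 1, 2 and 3. Its lowest value still exceeded 79.8% of the genes on that array. Its range was 1.76, and distal 3 was the highest of all libraries, the only gene of the 5 for which that was so. As labelled, the means were 12.25 ± 0.95 in distal and 12.85 ± 0.77 in proximal libraries (SD, n = 3), and the difference was -0.60 (SE 0.57, limma adjusted p = 0.825). On the 4 libraries it was -1.58 (SE 0.13, limma adjusted p = 0.00245), or 3.00-fold higher in proximal libraries. It lost its call without proximal 2 (limma adjusted p = 0.0841) or proximal 3 (0.0878), at nearly the same size. Levels of different probe sets cannot be set against each other, so the share of Slc51b protein that finds a partner was not measured, and whether the differences of Slc51a and Slc51b are unequal was not tested.

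Fgf15, the hormone that carries the ileal bile acid signal to the liver, measured 5.47, 7.23 and 6.76 in proximal 1, 2 and 3, and 5.88, 5.26 and 6.71 in distal 1, 2 and 3. The 3 low values were below the lower quartile of their arrays, and the highest exceeded only 31.3% of genes, so this was a dim signal throughout. The widest gap between neighbouring values was 0.83, against 0.47 for the next. As labelled, the means were 5.95 ± 0.73 in distal and 6.49 ± 0.91 in proximal libraries (SD, n = 3), with a difference of -0.54 (SE 0.54, limma adjusted p = 0.830). On the 4 libraries it was -1.42 (SE 0.26, limma adjusted p = 0.0211). That call was lost whichever of the 4 libraries was left out, with adjusted p from 0.0640 to 0.207 by limma and differences from -1.74 to -1.12.

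As labelled, limma called 0 of the 5 genes past an adjusted p of 0.05 and 0% of all 18193 genes, and 0.824 was the lowest adjusted p of any gene. By limma without adjustment, 0 of the 5 genes and 554 of all genes had p under 0.05. When arrays were weighted by their fit, limma called 5 of the 5 genes and 5579 of all genes (30.7%). That fit gave most weight to proximal 2 (6.72) and distal 1 (2.5) and least to proximal 1 (0.322) and distal 3 (0.291). It is thus not separate from leaving the latter pair out. The labelled groups were free of overlap in 0 of the 5 genes and in 7.33% of all genes. The median difference was -1.40 over the 5 genes and -0.02 over all genes. The order of libraries with proximal 2, proximal 3 and distal 3 above the other 3 was seen in 5 of 5 genes and in 23.7% of all genes. The split was thus common on these arrays.

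Without proximal 1 and distal 3, limma called 5 of the 5 genes, all higher in proximal libraries, where it called 19.2% of all genes and 11.5% in that direction. The median difference was -3.06 over the 5 genes and -0.045 over all genes. These libraries were left out for their own profiles, so the p-values overstate the evidence and describe 4 libraries, 2 per label. The plot of all genes shows how far from the bulk each gene lay. Slc51a, Slc10a2 and Fabp6 have the larger differences, and Slc51b, at a high mean, and Fgf15, at a low mean, the smaller ones.

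**Figure D2:**
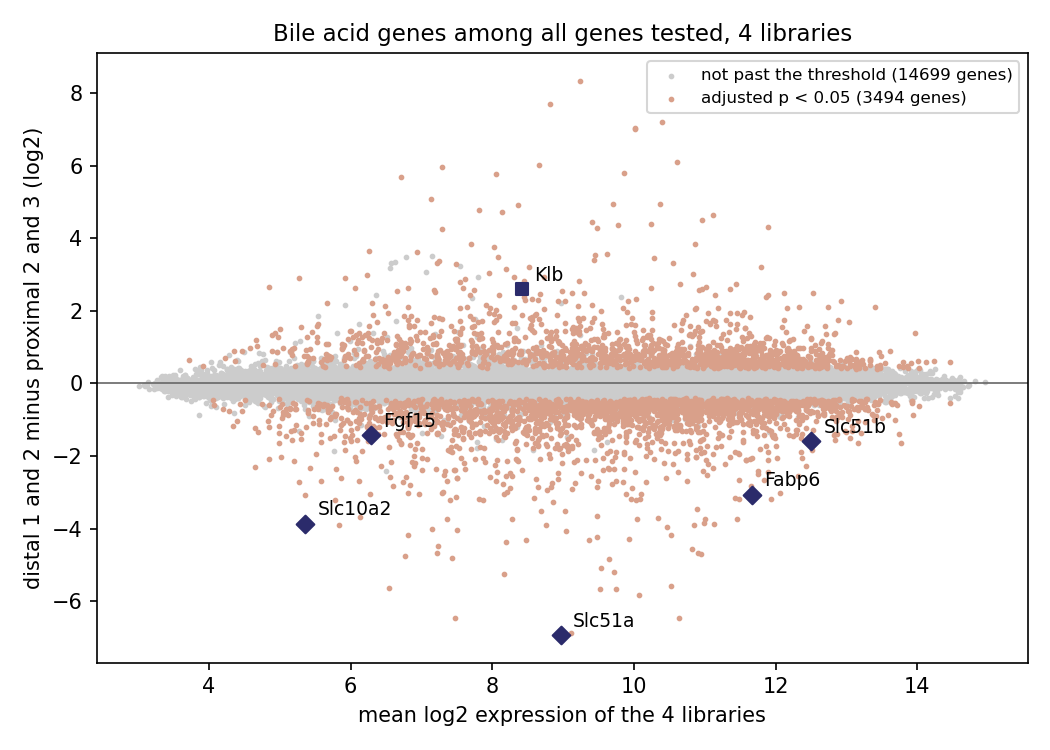
Mean log2 expression (x axis) against the difference of distal 1 and 2 minus proximal 2 and 3 on the log2 scale (y axis) for 18193 genes, 1 point per gene. The 3494 genes past an adjusted p of 0.05 are coloured, the 5 bile acid genes are diamonds and Klb is a square. The 5 genes lie between -1.42 and -6.92, and Klb lies at 2.59.

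The libraries that were left out can be placed on the scale set by the other 4, where the mean of distal 1 and 2 is 0 and the mean of proximal 2 and 3 is 1. Distal 3 lay at 0.70 for Fabp6, 0.80 for Fgf15, 0.81 for Slc10a2, 0.95 for Slc51a and 1.03 for Slc51b. Its median place was 0.86 (quartiles 0.72 and 0.97) over 687 genes, those that limma called higher in proximal libraries on the 4 and by at least 1. Only Fabp6 among the 5 was thus outside the quartiles on the low side and only Slc51b on the high side. Proximal 1 lay at -0.07 for Fgf15, -0.01 for Slc10a2, 0.05 for Slc51a, 0.07 for Fabp6 and 0.16 for Slc51b, against a median of 0.13 over the same genes (quartiles -0.01 and 0.32). Distal 3 was thus nearer to the proximal pair than to the distal pair, and proximal 1 nearer to the distal pair, for each of the 5 genes. Distal 3 was still below both proximal libraries for Fabp6 (12.28) and Slc10a2 (6.55), where that pair differed by only 0.27 and 0.18. For Slc10a2, Slc51a and Fgf15, proximal 1 and the distal pair were below the lower quartile, where background can hide differences between them.

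The genes closest in pattern to each of the 5 were found by the root mean square difference between log2 profiles over the 6 libraries, each centred on its own mean. Nearest to Slc10a2 were the organic cation exporter Slc47a1 (0.179), Vnn1 (0.185), Cyp4b1 (0.195), St3gal5 (0.230) and the carnitine and ergothioneine transporter family member Slc22a4 (0.306). Nearest to Fabp6 were the matrix protease Mmp7 (0.105), Depdc7 (0.191), Ms4a18 (0.206), Padi2 (0.215) and the transcription factor Creb3l3 (0.229). Mmp7 measured 6.12, 9.20 and 8.81 in proximal 1, 2 and 3 and 5.80, 5.78 and 8.11 in distal 1, 2 and 3. Distal 3 was the lowest of the high libraries for Mmp7, as for Fabp6 and the other genes listed with it. That likeness follows from picking the genes by their profiles. For Slc51a the nearest were further off, with Ugt8a (0.569), Prap1 (0.599), the neurotensin gene Nts (0.633), Ugt2b5 (0.836) and Acaa1b (0.839). For Slc51b they were very close, with the bacterial lipoprotein receptor Tlr2 (0.051), Fam118a (0.072), Fam162a (0.087), Nceh1 (0.089) and Tcf23 (0.090). For Fgf15 they were Xpnpep2 (0.146), the triglyceride synthesis enzyme Dgat2 (0.159), Spryd7 (0.190), Epha2 (0.194) and Fam78a (0.196). Among the 5 genes themselves the closest were Slc51b and Fgf15 (0.33) and Slc10a2 and Fabp6 (0.50), and the furthest Slc51a and Fgf15 (2.70). The measure weighs size as well as shape, so the distances are smaller for genes with small ranges.

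Of 37 measured bile acid genes, the 5 included, 0 passed as labelled (0 at an unadjusted p of 0.05). Without proximal 1 and distal 3, limma called 12 higher in proximal libraries (32.4%, against 11.5% of all genes) and 3 higher in distal libraries (8.11%, against 7.71% of all genes), and 22 did not pass. Leaving out the 5, the counts were 7 and 3 of 32, with a median difference of -0.10. The 4-library count of 15 was lower when a further library was left out, as were the calls over all genes. It was 4 without proximal 2, where 0.907% of all genes passed, and 4 without proximal 3, where 0.803% did. Dropping distal 1 gave 12, with 8.98% of all genes, and dropping distal 2 gave 5, with 2.23%. In the next paragraphs, a gene is called higher or lower by limma on the 4 libraries, and none of them passed on all 6.

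Of 10 carriers and pumps, 5 were called higher on the proximal side, 1 on the distal side and 4 on neither. The proximal count includes Slc10a2, Slc51a and Slc51b, and the shares over all genes were 11.5% and 7.71%. Beside Slc10a2, Slc51a and Slc51b, Slco2b1, an organic anion uptake carrier, fell by 0.89 in distal libraries (SE 0.12, limma adjusted p = 0.00970), and all 3 of its probe sets ran that way. Abcc3, a pump of the basolateral membrane that exports bile acid conjugates, measured 12.75, 13.42 and 13.51 in proximal 1, 2 and 3 and 12.76, 12.90 and 13.46 in distal 1, 2 and 3, and was lower in distal libraries (-0.64, SE 0.11, limma adjusted p = 0.0205). Slc10a1, the bile acid uptake carrier known from hepatocytes, was higher in distal libraries (0.80, SE 0.14, limma adjusted p = 0.0183), and its other probe set differed by 0.19. The calls of Slco2b1 and Abcc3 were lost whichever of the 4 libraries was left out, and that of Slc10a1 in 3 of 4 such fits. Abcb11, the canalicular bile salt pump of the liver, was below the lower quartile of the array in all 6 libraries.

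Klb, the coreceptor beta-Klotho, measured 8.89, 7.11 and 7.13 in proximal 1, 2 and 3, and 9.91, 9.51 and 6.75 in distal 1, 2 and 3. It was high in proximal 1, distal 1 and distal 2, the libraries where Fgf15 was low and below the lower quartile. Slc10a1, Fgfr4 and Nr5a2, among others, had the same 3 libraries highest, and the share of all genes with that order was not counted. A link between Klb and Fgf15 was not tested. The difference of Klb was 1.01 as labelled (SE 0.92, limma adjusted p = 0.824) and 2.59 on the 4 libraries (SE 0.16, limma adjusted p = 0.00108). The call was lost without proximal 2 or proximal 3, with a highest adjusted p of 0.0601 by limma, and its other probe set differed by 0.52. Fgfr4, the receptor of Fgf15 in liver, did not pass (0.57, SE 0.19, limma adjusted p = 0.0939), with all 5 probe sets on the side of distal libraries. Malrd1, known in mice to affect Fgf15 output, was not analysed here.

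Nr1h4, which encodes FXR, measured 11.40, 12.14 and 12.15 in proximal 1, 2 and 3 and 11.73, 11.32 and 12.20 in distal 1, 2 and 3. It was thus bright in every library, with the same 3 libraries highest, and its 4-library difference of -0.62 (SE 0.16) did not pass (limma adjusted p = 0.0536). Its target Nr0b2, the repressor SHP, lay between 5.70 and 5.83 and was below the lower quartile of every array. Gpbar1, the membrane receptor for bile acids, was not analysed here.

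Of 12 receptors and regulators, 3 were called higher on the proximal side, 1 on the distal side and 8 on neither. Over all genes, 11.5% were called higher in proximal and 7.71% in distal libraries, so calls on either side were common. Ppara, a nuclear receptor of fatty acids, was lower in distal libraries (-1.47, SE 0.19, limma adjusted p = 0.00795), as were Rxra, the partner of FXR (-0.72, SE 0.10, limma adjusted p = 0.0108), and the intestinal homeobox gene Cdx2 (-0.88, SE 0.16, limma adjusted p = 0.0212). Nr5a2, which encodes LRH-1, known in mice to activate Slc10a2, was higher in distal libraries (0.72, SE 0.14, limma adjusted p = 0.0233). The 3 probe sets of Rxra differed by -1.37 to -0.04. These 4 calls were lost in at least 3 of the 4 fits that left out a further library. Gata4, which in mice keeps Slc10a2 off in the proximal small intestine, lay between 6.06 and 6.42, below the lower quartile of every array. Hnf4a, a regulator of enterocyte genes, lay between 14.21 and 14.33, a difference of -0.02 (SE 0.11, limma adjusted p = 0.940), and its 4 probe sets differed by -0.84 to -0.02.

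Of 11 genes of bile acid synthesis and conjugation, 2 were called higher on the proximal side, 0 on the distal side and 9 on neither. The shares were 18.2% and 0%, against 11.5% and 7.71% of all genes. Acox2, the peroxisomal oxidase that shortens the bile acid side chain, measured 5.85, 8.69 and 8.92 in proximal 1, 2 and 3 and 6.28, 6.14 and 8.19 in distal 1, 2 and 3. Its 4-library difference was -2.60 (SE 0.13, limma adjusted p = 0.000584), and it passed in 3 of the 4 fits that left out a further library. Amacr, a racemase of the same peroxisomal steps, was lower in distal libraries by a smaller amount (-0.60, SE 0.11, limma adjusted p = 0.0208), a call lost in all 4 such fits. Cyp7a1 and Cyp8b1, liver enzymes of the start of synthesis and of cholic acid formation, were below the lower quartile of the array in all 6 libraries, and 5 of the 11 genes were.

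**Figure D3:**
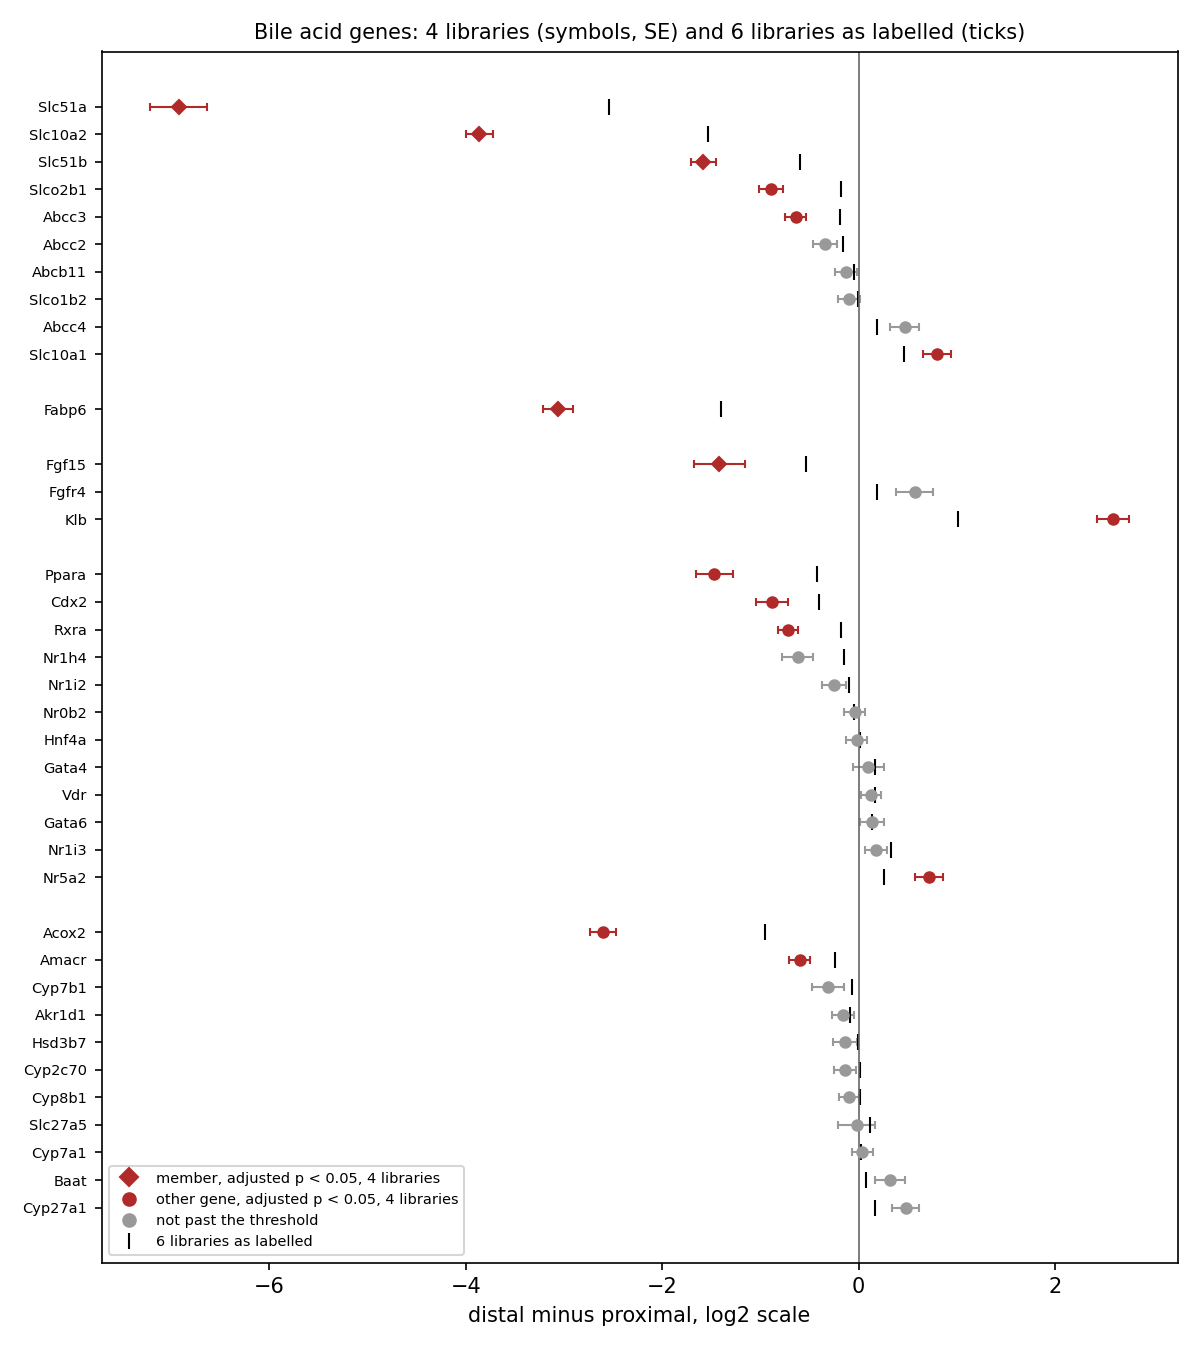
Difference of distal minus proximal on the log2 scale for 37 bile acid genes, grouped from top to bottom as carriers and pumps, binding, the FGF15 signal, receptors and regulators, and synthesis. Diamonds (the 5 genes) and circles (other genes) are the 4-library values with their SE, red where limma's adjusted p was under 0.05, and black ticks are the values of all 6 libraries as labelled. Slc51a is furthest to the left and Klb furthest to the right, and every tick of the 5 genes lies nearer 0 than its diamond.

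Marker genes of other cells show what moved with the 5 genes. Each list is given as the log2 of its summed linear level. The epithelial list, 8 genes such as Epcam and Krt8, ran from 17.08 to 17.21 in proximal and from 17.11 to 17.21 in distal libraries, and 0 of its 8 genes passed on the 4 libraries. Its range over the 6 libraries was 0.13, and its part in the result was not tested. The colonocyte list ran from 16.99 to 17.22 in proximal and from 17.13 to 17.25 in distal libraries, so the sum was bright in all 6. Of its 8 genes, 3 were higher in proximal libraries on the 4-library comparison (Car1, Aqp8 and Krt20) and 2 in distal libraries (Car4 and Saa1), so the sum holds opposite differences. Such calls were made for 11.5% and 7.71% of all genes. In bulk tissue, fewer cells of a type and less RNA per cell cannot be told apart.

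Small intestinal enterocyte markers moved with the bile acid genes. Their summed level was 12.77, 14.65 and 14.73 in proximal 1, 2 and 3, and 13.52, 13.46 and 14.50 in distal 1, 2 and 3, so it was higher in the same 3 libraries. On the 4 libraries 6 of 7 measured genes were higher in proximal libraries, against 11.5% of all genes. The largest differences were those of Cubn, the receptor for the vitamin B12 carrier complex (-4.30, SE 0.21, limma adjusted p = 0.000530), and Alpi, the intestinal alkaline phosphatase (-4.28, SE 0.77, limma adjusted p = 0.0202). Alpi itself measured 6.55 and 9.03 in distal 1 and 2. Rbp2, Apoa4, Mep1a and Apob differed by less, -1.03, -0.94, -0.92 and -0.76. Lct, the lactase of the small intestine, was below the lower quartile in all 6 libraries. The part of these markers in the result was not tested.

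Of 7 Paneth cell markers 3 were measured, and their summed level was highest in proximal 1 (13.66) and distal 3 (13.59) and lowest in distal 2 (12.89). Mmp7, described above as nearest to Fabp6, is 1 of them and was lower in distal libraries (-3.22, SE 0.16, limma adjusted p = 0.000536), and the bright Lyz1 and Itln1 did not pass. Hepatocyte markers ran from 13.70 to 14.05 in proximal and from 13.19 to 13.79 in distal libraries, with Fgb and Ahsg below the lower quartile in all 6. Of 7 such genes Cps1, which intestinal epithelium also expresses, was lower in distal libraries (-1.88, SE 0.21, limma adjusted p = 0.00555), and Alb was higher (0.90, SE 0.11, limma adjusted p = 0.00662). Alb was dim throughout, at most 6.69, and below the lower quartile in 4 of the 6 libraries. Smooth muscle markers ran from 15.98 to 16.36 in proximal and from 16.37 to 16.43 in distal libraries, and 1 of 7 passed. Leukocyte markers ran from 11.75 to 12.06 and from 11.41 to 11.78, and 1 of 4 passed in each direction. The part of these lists in the result was not tested.

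Markers of pancreatic acinar cells were present in a pair of libraries that were both low in bile acid genes. Their summed level was 15.05 in proximal 1 and 15.03 in distal 1, and between 8.75 and 9.12 in the other 4 libraries. In distal 2, where it was 8.75, Slc51a measured 5.94 and Fabp6 10.24. The part of this signal in the result was not tested.

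**Figure D4:**
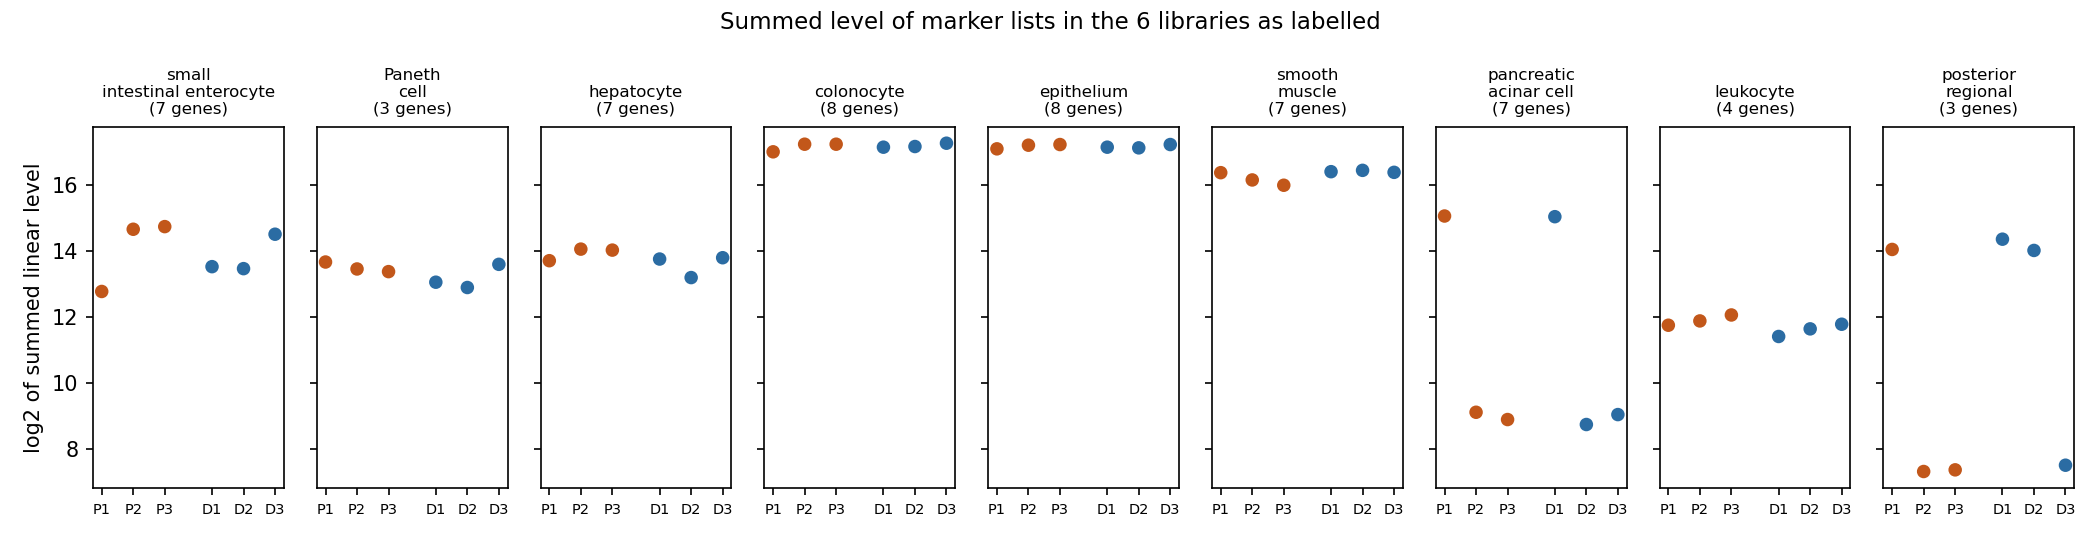
Log2 of the summed linear level of 9 marker lists in the libraries labelled proximal (P1 to P3, orange) and distal (D1 to D3, blue), 1 point per library, with the number of genes measured. The summed levels of epithelial and colonocyte markers span 0.13 and 0.26, the latter with 5 of 8 genes called in opposite directions, small intestinal markers are higher in P2, P3 and D3, posterior markers are lower there, and acinar markers are high in P1 and D1.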

How the data were processed

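Total RNA of 6 mouse colon libraries was amplified to cDNA, labelled with biotin and hybridised to single-colour arrays, per the labels' protocols. The deposited log2 values were made by the authors with RMA in Partek 6.5, per the submitters' processing notes. The log2 scale is taken from that note and from the range of 2.91 to 15.16, and the background setting is not given in the sources used here. RMA brings all arrays to 1 distribution, which hides any shift common to most genes. No detection calls were used here. Precision is limited by the number of arrays.

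Of 45101 probe sets, 64 controls were left out. Of the rest 34945 had 1 gene symbol, 932 several and 9160 none, and a gene was read from its probe set with the highest mean, giving 18193 genes. A RefSeq table (GRCm38.p6) gave current symbols for 34741 probe sets. The regions were compared by limma 3.58.1 under R 4.3.3 (lmFit, eBayes, two-sided, Benjamini-Hochberg over all genes, threshold 0.05), without a block for the number in the titles. Its p-values rest only on the variation among the 6 libraries. The calculation was tested on simulated data. All genes there had the same spread and no library went against its label. That test thus checks the code and does not bear on the calls made here.

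The members, gene lists and tests were chosen with earlier results of these data known, as was leaving out proximal 1 and distal 3. Named genes were the 5, up to 4 of each pathway list past the threshold, 9 regulators and receptors whatever their values, and the 5 nearest in pattern to each gene. Abcb11, Cyp7a1 and Cyp8b1 fall outside this rule and were named after their values were seen. Alternatives were the number as a block, a filter on genes below the median mean, quantile normalization, array weights, averaging over probe sets, a trended and robust prior, centring on the median, and leaving out each library. Promoter motifs were searched in RefSeq windows with Python 3.11.15. An item of the pathway lists is not reported here.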

Additional observations from a re-analysis of the deposited data

How the results depend on the processing

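As labelled, the direction of all 5 genes (lower in distal libraries) was kept under every alternative run, and none passed under the replicate block, quantile normalization, median centring, the trended and robust prior, the mean of probe sets, the filter, which left only Fabp6 and Slc51b to test, or with any 1 library left out. With 1 library left out the differences ran from -2.82 to -0.84 for Slc10a2, -2.35 to -0.86 for Fabp6, -4.74 to -1.24 for Slc51a, -1.14 to -0.26 for Slc51b and -1.04 to -0.16 for Fgf15, and the counts of genes called ran from 0 to 0. Array weights gave -3.40, -2.91, -6.39, -1.49 and -1.20 in that order. Past the threshold were then 5 of 5 genes, 16 of 37 pathway genes and 5 of 5 probe sets, beside 30.7% of all genes. The weights were 0.322, 6.72 and 1.57 for proximal 1, 2 and 3, and 2.5, 0.403 and 0.291 for distal 1, 2 and 3. They were lowest for distal 3 and proximal 1, so this fit is not separate from the one that leaves them out. Within each label most of the weight was on 1 library, proximal 2 or distal 1. Leaving out proximal 1 and distal 3, chosen after seeing the data, gave -3.86, -3.06, -6.92, -1.58 and -1.42. It called 5 of 5 genes, 15 of 37 pathway genes and 5 of 5 probe sets, beside 19.2% of all genes. The cause was not tested.

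Whether the number in the titles pairs the libraries is not known: the labels do not say, and deviations from the group means of same-numbered libraries correlated at 0.68, -0.45 and 0.68, values that include both libraries that went against their labels. With the replicate block 0 genes passed, and the differences of -1.53, -1.40, -2.54, -0.60 and -0.54 did not move. On the 4 libraries, leaving out a further one gives a fit in which the remaining pair alone sets the spread, which the lone library is taken to share. The differences then ran from -3.99 to -3.73 for Slc10a2, -3.20 to -2.92 for Fabp6, -7.36 to -6.49 for Slc51a, -1.72 to -1.46 for Slc51b and -1.74 to -1.12 for Fgf15. Of the 5 genes 3 to 4 passed, of the 37 pathway genes 4 to 12, and of all 18193 genes 146 to 1633 (0.803% to 8.98%). With the filter on low values 2 of the 5 genes were tested and both passed, as did 35.8% of all genes tested. Signal near background limits Slc10a2, Slc51a and Fgf15, whose low values are bounds.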
